A study of Caenorhabditis elegans with 8 samples.

Results

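Cytochrome P450 genes of *C. elegans* were followed over 8 two-colour arrays that set 3 strains with altered *age-1* activity against wildtype. A gene was counted as a member when its symbol in the RefSeq annotation began with cyp- and a probe of the Agilent array, other than a control spot, carried its sequence name. The annotation holds 80 such symbols, 6 of them pseudogenes. A probe of their own was found for 74, among them the pseudogenes *cyp-25A5*, *cyp-29A1* and *cyp-34A3*. For 4 of the 74 (*cyp-13A4*, *cyp-13A12*, *cyp-25A4* and *cyp-25A5*) that probe is also listed for another gene. The probes of *cyp-25A4* and *cyp-25A5* are each listed for both, so these genes may not count separately. The 74 genes belong to 15 families and 25 subfamilies, were read by 77 probes on 86 spots, and are part of 18873 genes measured in all. *cyp-13A9*, *cyp-13A11*, *cyp-25A3*, *cyp-31A1*, *cyp-35A1* and *cyp-35D2* had no probe of their own and are not described. A further 18 probes of 17 genes have an array name that begins with cyp-, but the annotation gives these genes the cyclophilin symbols *cyn-* or, for one, *sig-7*, and they were left out.

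Cytochrome P450s are heme enzymes of the endoplasmic reticulum, and some of mitochondria, that insert an oxygen atom into small lipophilic substrates with electrons passed on by a reductase and cytochrome b5. In nematodes they oxidise foreign compounds as the first phase of detoxification, turn polyunsaturated fatty acids into signalling lipids, and make sterol hormones. Many are expressed in the intestine. *age-1* encodes the catalytic subunit of the phosphoinositide 3-kinase that carries the signal of the insulin receptor DAF-2, and loss of this signal frees the FOXO factor DAF-16 to enter the nucleus. *cyp-35B1*, also known as *dod-13*, is one of the genes known to lie downstream of DAF-16.

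All 3 strains were homozygous for *sqt-1(sc13)* and *age-1(mg44)*. The *age-1(mg44)* arrays (n = 2) measured m+z- hermaphrodites, which had heterozygous parents and so received maternal *age-1*. CY262 (n = 3) carries in addition the transgene array *bvIs1*, which restricts *age-1* expression to the intestine, and CY251 (n = 3) carries *bvIs2*, which restricts it to neurons. The promoters of both transgenes are not given in the sources used here, and each transgenic strain is 1 integrated line. RNA came from whole hermaphrodites grown for 72 h at 20 °C from arrested first-stage larvae to the late-L4 or young adult stage, and wildtype N2 RNA of similar or slightly later stage was hybridized to every array. In whole-animal RNA, fewer cells of a type cannot be told apart from less RNA per cell. The strain was always in Cy3 and wildtype in Cy5. A probe that takes up the dyes unequally therefore moves each value against wildtype the same way, and this drops out of a difference between strains. The study speaks of 3 replicates per strain, N2 included, so wildtype RNAs may recur across arrays and p-values may cover less spread than separate cultures would give. Wildtype signals of some P450 genes went by replicate number, as for *cyp-35A5*, picked after its values were seen. Its wildtype signal was 648 to 761 units on replicate 1 arrays, 131 to 148 on replicate 2 and 100 to 121 on replicate 3. Whether arrays of 1 number shared a wildtype RNA was not tested, and the main model has no term for replicate number.

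The records disagree on 4 of the 6 arrays of CY262 and CY251. Under the value table of the series, the arrays recorded as CY251 replicates 2 and 3 belong to CY262, and those recorded as CY262 replicates 2 and 3 belong to CY251. The names of the files exchange only the replicate 2 arrays. Values of CY262 and CY251 are given for the arrays as recorded unless another assignment is named. The mean over all 6 arrays does not depend on the choice, although the spread it is tested against does. One array, recorded as CY262 replicate 2, was read by the scanner software on another day than the other 7.

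Of 21482 spots, between 86.1% and 92.8% per channel were well above background. Among the P450 genes, 65 were so on all 8 arrays in the strain channel and 67 in the wildtype channel. In each channel 3 genes were above background on no array, *cyp-33C2* and *cyp-33C11* in both channels, *cyp-29A1* in the strain channel and *cyp-33C12* in the wildtype channel. No P450 spot was saturated. The probe for *age-1* read below wildtype in all strains, with log2 ratios of −1.06 and −1.64 in *age-1(mg44)*, −1.71 to −1.03 in CY262 and −1.88 to −1.05 in CY251, and where it lies relative to the transgenes is not known, so it checks no label. Stage markers differed from wildtype as well. All 26 major sperm protein genes were higher in each strain (median log2 difference 6.48, 6.21 and 6.60 for *age-1(mg44)*, CY262 and CY251), while the 14 oocyte and eggshell genes had medians of −1.42, −1.20 and −1.19. Of 12 intestinal markers, 6, 10 and 9 were higher in the same order (median 0.82, 1.07 and 1.05), and of 147 collagen genes 65, 99 and 98. Of 10 neuronal markers 0, 4 and 3 were higher, with medians of 0.35, 0.31 and 0.31. The 6 vitellogenin genes, which encode yolk proteins, read nearer to wildtype in CY262 (median −0.16) and CY251 (−0.32) than in *age-1(mg44)* (−1.32). None was called in any strain. Their probes were saturated on all 8 arrays, and on CY262 replicate 2 all 6 read 0.38. These medians therefore do not measure the size of a difference in yolk RNA. The part of stage and tissue content in the P450 values was not tested.

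The first question was which P450 genes were altered in each strain against wildtype. In *age-1(mg44)*, 24 of the 74 were higher and 2 lower at an adjusted p under 0.05 (limma, Benjamini-Hochberg over all genes tested), while of all genes 11.6% were higher and 7.95% lower. CY262 had 21 higher and 4 lower P450 genes beside 18.2% and 14.3% of all genes. CY251 had 20 higher and 4 lower beside 18.4% and 12.7%. The P450 genes had a median log2 difference of 0.26 (*age-1(mg44)*), 0.20 (CY262) and 0.23 (CY251), and that of all genes −0.01 in each. Above 0 lay 51, 53 and 47 of the 74. The total of 26 in *age-1(mg44)* fell to 7 without its replicate 1 and to 6 without its replicate 2, each of which leaves a single array. The total of 25 in CY262 was 12 without its replicate 3, and the total of 24 in CY251 was 15 without its replicate 3. Centring each array on its median in place of loess gave 26 higher and 11 lower in CY262 and 22 higher and 10 lower in CY251, and the deposited log ratios gave 17 higher and 7 lower in CY251. The share of all genes called was not counted for these other settings or with arrays left out.

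**Figure D1:**
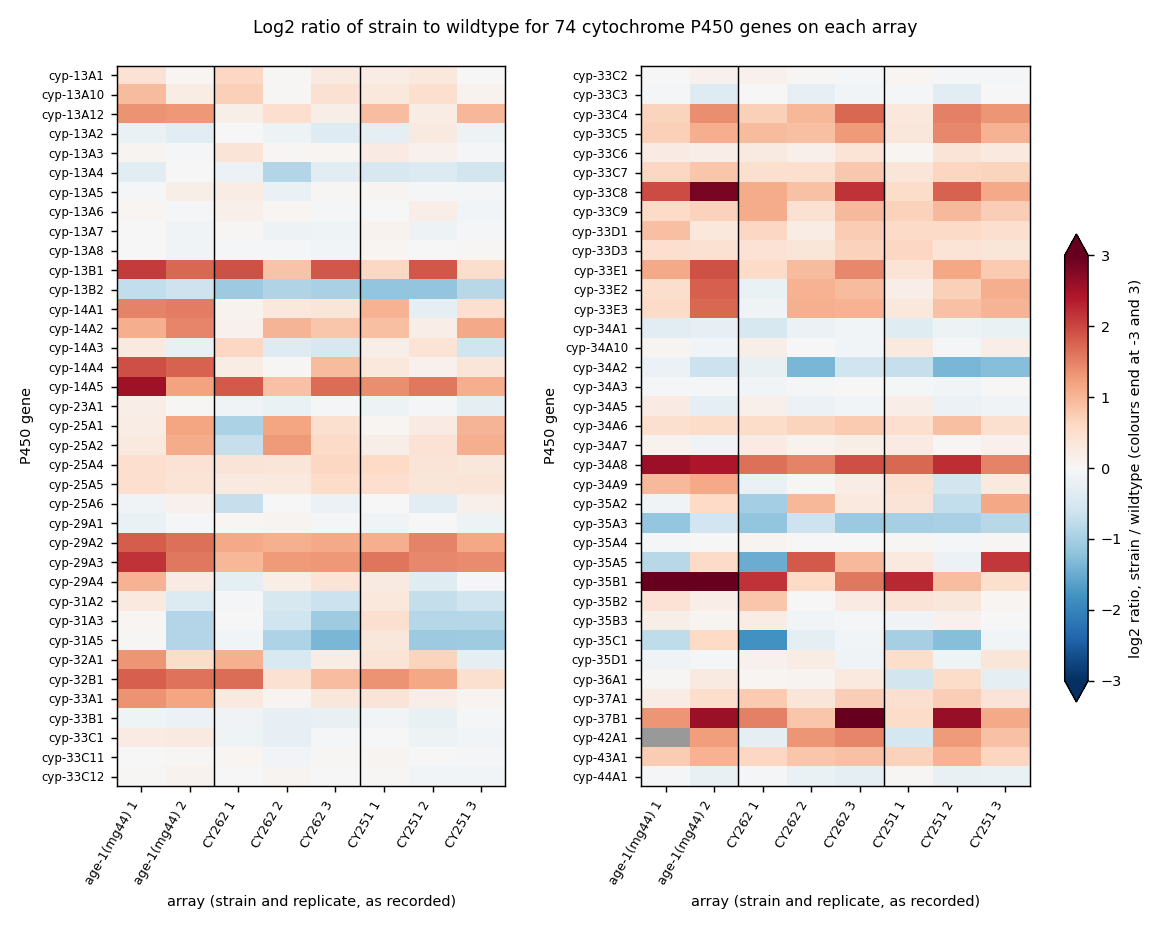
Heat map of the log2 ratio of strain to wildtype for each of the 74 P450 genes (rows) on each of the 8 arrays (columns, as recorded), with colours ending at −3 and 3 and grey for a missing spot. *cyp-35B1*, *cyp-34A8* and *cyp-29A2* are above 0 on all 8 arrays, *cyp-35A3* and *cyp-13B2* are below 0 on all 8, and most *cyp-13A* genes stay near 0.

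The P450 genes called in each strain overlapped in part, as a description of comparisons that share the wildtype reference. *cyp-14A5*, *cyp-25A4*, *cyp-25A5*, *cyp-29A2*, *cyp-29A3*, *cyp-32B1*, *cyp-33C5*, *cyp-33C7*, *cyp-33C8*, *cyp-33C9*, *cyp-33D1*, *cyp-33D3*, *cyp-33E1*, *cyp-34A6*, *cyp-34A8* and *cyp-43A1*, 16 in all, were higher in all 3 strains. In *age-1(mg44)* alone, 5 were called higher: *cyp-35B1*, *cyp-14A1*, *cyp-14A4*, *cyp-33A1* and *cyp-34A9*. *cyp-35A3* and *cyp-13B2* were lower in all 3 strains. How many of all genes share these patterns was not counted, so the overlap is not shown to be particular to P450 genes. The calls in 1 strain and not another do not by themselves show a difference between strains, which is tested further on.

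*cyp-35B1* (K07C6.4, chromosome V) had the largest rise of any P450 gene in *age-1(mg44)*. Its background-subtracted signal was 1407 and 745 units in the strain channel of the *age-1(mg44)* arrays, against 80.6 and 199 in the wildtype channel of the same arrays. In CY262 replicates 1, 2 and 3 the strain signal was 211, 228 and 405 and the wildtype signal 61.7, 169 and 270. In CY251 replicates 1, 2 and 3 it was 204, 195 and 190 against 51.0, 178 and 262.3. Both *age-1(mg44)* arrays thus stood above all 6 others in the strain channel, while the wildtype channel was low on the 3 replicate 1 arrays and at least 169 on the rest. Over all spots the unnormalized strain signal was lower than wildtype, with a median log2 ratio of −1.12 to −0.08 per array, which loess removes.

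After normalization the log2 ratio of *cyp-35B1* was 4.88 and 3.22 in *age-1(mg44)*, 2.16, 0.59 and 1.58 in CY262, and 2.27, 0.93 and 0.49 in CY251. The groups of *age-1(mg44)* and of the 6 tissue-restricted arrays did not overlap, and within each strain replicate 1 read highest. The mean in *age-1(mg44)* was 4.05 ± 0.58 (SE), a 16.5-fold rise (limma adjusted p = 0.00747), placed 84 among 18861 genes ordered by rise. Without *age-1(mg44)* replicate 1 the value was 3.22 with an adjusted p of 0.0641. In CY262 the mean was 1.44 ± 0.79 (SD, n = 3; limma adjusted p = 0.0583) and in CY251 1.23 ± 0.93 (SD, n = 3; limma adjusted p = 0.0953), so neither strain passed the threshold against wildtype, although both were above 0 on all arrays. Over the 24 other settings the p used for the call, adjusted in all but 1 setting, ran from 0.00733 to 0.213 in CY262, which passed under 5 of them, and from 0.0106 to 0.351 in CY251, which passed under 3. Both lowest values came from the fit with the replicate block, and CY262 also passed with the replicate 2 arrays exchanged (limma adjusted p = 0.0339).

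**Figure D2:**
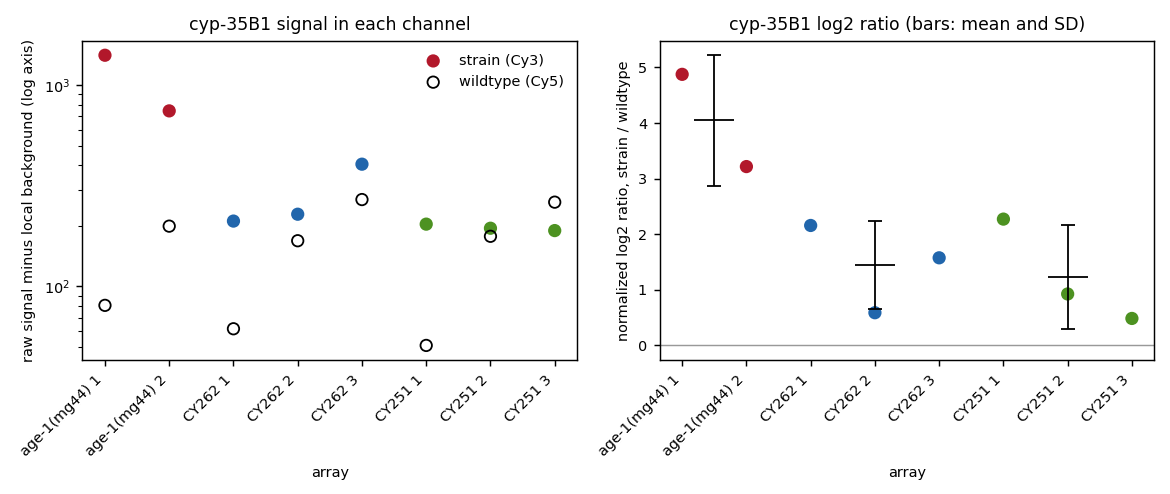
*cyp-35B1* on each array: at left the raw signal minus local background of the strain (filled) and of wildtype (open) on a log axis, at right the normalized log2 ratio with the mean and SD of each strain. The strain signals of *age-1(mg44)*, 1407 and 745, lie above those of all CY262 and CY251 arrays, 190 to 405.

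The genes next to *cyp-35B1* did not share its rise. P450 genes with at most 3 other genes between neighbours formed 12 clusters that hold 48 of the 80 annotated genes, by their order in the RefSeq table. The cluster around *cyp-35B1* has 10 genes, all measured: *cyp-35A5*, *cyp-35B1*, *cyp-35B2*, *cyp-35B3* and *cyp-34A5* to *cyp-34A10*. Of these, 4 were higher in *age-1(mg44)*, and mean differences ran from −0.13 to 4.05. *cyp-35B2* and *cyp-35B3*, the other genes of the subfamily, read 0.44 and 0.19, and 0.17 and 0.09, on the *age-1(mg44)* arrays. *cyp-35B2* spanned −0.01 to 0.83 and *cyp-35B3* −0.10 to 0.23 over CY262 and CY251, and neither was called in any strain.

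*cyp-34A8* in the same cluster was higher in every strain. Its log2 ratio was 2.56 and 2.42 in *age-1(mg44)*, 1.65, 1.48 and 1.93 in CY262, and 1.73, 2.21 and 1.499 in CY251, without overlap between *age-1(mg44)* and the others. The rise in *age-1(mg44)* was 2.49 ± 0.18 (SE), or 5.63-fold (limma adjusted p = 0.000783). *cyp-34A9* read 0.98 and 1.14 in *age-1(mg44)*, and −0.56 to 0.46 on the 6 arrays of CY262 and CY251. Its rise was 1.06 ± 0.24 (SE; limma adjusted p = 0.0265), and the means of CY262 and CY251 were 0.02 and 0.07. *cyp-34A6* was moderately higher throughout, between 0.47 and 0.90 on all 8 arrays, whereas *cyp-34A5*, *cyp-34A7* and *cyp-34A10* were called in no strain. *cyp-34A2*, in a separate pair with *cyp-34A1*, was below 0 on all arrays, from −1.36 to −0.18, and was called lower in CY251 alone.

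The *cyp-35A* genes, known for induction by foreign compounds and for a part in fat storage, held 1 called member of the 4 measured. *cyp-35A3* was lower in each strain, with log2 ratios of −1.15 and −0.58 in *age-1(mg44)*, −1.17, −0.62 and −1.11 in CY262, and −0.98, −0.96 and −0.83 in CY251. In *age-1(mg44)* it was 1.82-fold lower (limma adjusted p = 0.0200). *cyp-35A2* read −0.10 and 0.61 in *age-1(mg44)*, −1.02, 0.99 and 0.30 in CY262, and 0.39, −0.75 and 1.15 in CY251. This spread within strains left its difference from wildtype at 0.26 ± 0.56 (SE; limma adjusted p = 0.783), and its sign turned with median centring (−0.67). *cyp-35A5* ranged still wider, from −1.49 to 2.13, and *cyp-35C1*, another gene induced by foreign compounds, from −1.82 to 0.60. *cyp-35A4* lay between −0.05 and 0.09 on all arrays.

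The *cyp-14A* genes showed the most frequent rise of any family with more than 2 members in *age-1(mg44)*, where 4 of 5 were higher (median 1.504), beside 1 in CY262 (median 0.40) and 2 in CY251 (median 0.42). *cyp-14A1* to *cyp-14A4* lie together on chromosome X, and *cyp-14A5* lies on chromosome V. *cyp-14A4* had strain signals of 159 and 140 units in *age-1(mg44)*, 36.6 to 96.5 on the other 6 arrays, and 27.2 to 63.5 in all wildtype channels, so its signals were dim. Its log2 ratio was 1.92 and 1.76 in *age-1(mg44)*, 0.23, 0.03 and 0.94 in CY262, and 0.32, 0.12 and 0.37 in CY251. The rise in *age-1(mg44)* was 1.84 ± 0.20 (SE), or 3.59-fold (limma adjusted p = 0.00376). The size of this rise depended strongly on background handling, from 0.54 with no background subtraction to 3.45 with the processed signals. The rises of *cyp-13B1*, from 0.60 to 3.28, and of *cyp-13A12*, from 0.37 to 2.46, varied alike between the same settings.

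*cyp-14A1* read 1.48 and 1.53 in *age-1(mg44)*, 0.11, 0.31 and 0.35 in CY262, and 1.05, −0.30 and 0.50 in CY251, again without overlap. *cyp-14A2* read 1.10 and 1.45, then 0.12, 1.01 and 0.83, then 0.89, 0.21 and 1.14, where the highest CY251 array lies above the lower *age-1(mg44)* array. *cyp-14A3*, in the same cluster, was near wildtype in all strains, with array values from −0.59 to 0.63. *cyp-14A5* was higher on every array, at 2.54 and 1.20 in *age-1(mg44)*, 1.85, 0.88 and 1.68 in CY262, and 1.39, 1.57 and 1.09 in CY251. The groups overlap for this gene because its 2 *age-1(mg44)* arrays lie far apart.

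The *cyp-33* genes are the largest family, with 18 measured, of which 8, 9 and 8 were higher in *age-1(mg44)*, CY262 and CY251, and 1 (*cyp-33B1*) lower in CY262. *cyp-33C8* read 1.97 and 2.84 in *age-1(mg44)*, 1.12, 0.87 and 2.17 in CY262, and 0.56, 1.78 and 1.14 in CY251. Its rise was 2.40 ± 0.40 (SE), or 5.29-fold (limma adjusted p = 0.0116). *cyp-33A1* was even between arrays, at 1.35 and 1.18 in *age-1(mg44)*, 0.30, 0.08 and 0.35 in CY262, and 0.38, 0.20 and 0.08 in CY251. Its rise was 1.26 ± 0.10 (SE), or 2.40-fold (limma adjusted p = 0.00140), and neither tissue-restricted strain passed the threshold against wildtype. *cyp-33E1* was higher in all 3 strains with means of 1.52, 0.99 and 0.79. Its relatives *cyp-33E2*, known to make signalling lipids from eicosapentaenoic acid, and *cyp-33E3* ran close together, from −0.20 to 1.79 and from −0.10 to 1.72, and passed the threshold in no strain. *cyp-33C5*, *cyp-33C7*, *cyp-33C9*, *cyp-33D1* and *cyp-33D3* were higher in all strains by 0.47 to 1.05. *cyp-33C2* and *cyp-33C11* were not well above background on any array, and *cyp-33C12* only on 1.

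In the *cyp-29A* and *cyp-32* families, *cyp-29A2* and *cyp-29A3* rose in each strain. *cyp-29A2* read 1.82 and 1.65 in *age-1(mg44)*, 1.14, 1.07 and 1.13 in CY262, and 1.08, 1.49 and 1.16 in CY251, so that its lowest *age-1(mg44)* array stood above all others. Its rise was 1.73 ± 0.11 (SE), or 3.33-fold, with the lowest adjusted p of any P450 gene in *age-1(mg44)* (limma, 0.000481). *cyp-29A3*, which in worms oxidises polyunsaturated fatty acids, read 2.18 and 1.57, then 0.99, 1.27 and 1.29, then 1.60, 1.45 and 1.43, and 1 CY251 array reached above the lower *age-1(mg44)* array. *cyp-32B1* read 1.80 and 1.63 in *age-1(mg44)*, 1.67, 0.46 and 0.92 in CY262, and 1.34, 1.17 and 0.48 in CY251, with a rise of 1.71 ± 0.30 (SE; limma adjusted p = 0.0136). *cyp-32A1* ran from −0.45 to 1.32 and was not called. The pseudogene *cyp-29A1* was well above background on no strain channel.

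Few *cyp-13* genes were altered. The 8 measured genes of the chromosome II cluster, which spans *cyp-13A1* to *cyp-13A9*, had *age-1(mg44)* means from −0.27 to 0.24 and none was called there. *cyp-13A4* was lower in CY262 and CY251 by 0.46 and 0.47, although its probe is also listed for *cyp-13A5*. The probe of *cyp-13A5* itself read 0.02 and −0.01 in these strains. *cyp-13A12*, which acts in the behavioural response of worms to oxygen after anoxia, read 1.35 and 1.29 in *age-1(mg44)*, 0.16, 0.51 and 0.17 in CY262, and 0.92, 0.22 and 0.996 in CY251. Its rise was 1.32 ± 0.19 (SE), or 2.50-fold (limma adjusted p = 0.00775), although its probe is also listed for *cyp-13A11*, which lies beside it on chromosome III.

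On chromosome X, *cyp-13B1* and *cyp-13B2* went opposite ways. *cyp-13B1* read 2.101 and 1.73 in *age-1(mg44)*, 1.91, 0.85 and 1.87 in CY262, and 0.62, 1.87 and 0.54 in CY251. Its rise in *age-1(mg44)* (limma adjusted p = 0.0197) did not pass without background subtraction (limma adjusted p = 0.0541). Within each tissue-restricted strain as recorded, 1 array stood far from the other 2. *cyp-13B2* read −0.73 and −0.62, then −1.08, −0.90 and −0.98, then −1.19, −1.18 and −0.83, and was thus below wildtype on every array. It was 1.60-fold lower in *age-1(mg44)* (limma adjusted p = 0.00929).

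The remaining families held single genes or small groups. *cyp-31A2* and *cyp-31A3* act in the oocyte to make the lipid layer of the eggshell. The 3 measured *cyp-31A* genes had medians of −0.42, −0.55 and −0.41 in *age-1(mg44)*, CY262 and CY251, and none was called. *cyp-31A5* read 0.03, −0.09 and 0.35 on the replicate 1 arrays of these strains and −1.37 to −0.88 on the other 5. The 14 oocyte and eggshell markers had medians of −0.80, −0.63 and −0.54 on the replicate 1 arrays and −2.11 to −1.11 on the others, so they were likewise nearer to wildtype on replicate 1. The part of oocyte content in the *cyp-31A* values was not tested.

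*cyp-25A4* and the pseudogene *cyp-25A5*, whose probes are each listed for both genes, were higher in all strains by 0.38 to 0.47. *cyp-25A1* and *cyp-25A2* ran together from −0.96 to 1.18 and from −0.69 to 1.27 and were not called. *cyp-43A1* was higher on all arrays, between 0.63 and 1.05. *cyp-37B1* varied widely, at 1.33 and 2.59 in *age-1(mg44)*, 1.52, 0.82 and 3.39 in CY262, and 0.55, 2.61 and 1.15 in CY251, and passed the threshold in CY262 alone. *cyp-36A1*, which acts downstream of the hypoxia pathway in worms, *cyp-23A1* and the mitochondrial P450 gene *cyp-44A1* were called in no strain against wildtype. *cyp-42A1* was also not called, and its spot was an outlier on *age-1(mg44)* replicate 1, so its *age-1(mg44)* value rests on 1 array.

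The second question was whether *age-1* in only the intestine or only neurons brought these genes nearer to wildtype. The difference between the 6 arrays of CY262 and CY251 and the 2 of *age-1(mg44)* was below 0 for 53 of the 74 P450 genes (71.6%), against 46.3% of all genes, with medians of −0.10 and 0.01. At an unadjusted p under 0.05 (limma), 13 P450 genes were lower and 0 higher, while of all genes 4.29% were lower and 3.85% higher. After adjustment over all genes 0 P450 genes passed (lowest limma adjusted p = 0.121), as did only 5 of all genes. In CY262 alone, 10 P450 genes were lower and 0 higher at an unadjusted p under 0.05, beside 3.55% and 3.21% of all genes. In CY251 alone, 11 were lower and 0 higher, beside 3.05% and 3.73%. The count of 11 fell to 5 without *age-1(mg44)* replicate 1 and to 7 without its replicate 2. The vitellogenin genes, whose probes were saturated, read the other way, with a median 1.07 above *age-1(mg44)* and none past an unadjusted p of 0.05. Their median was −1.43 and −1.18 on the *age-1(mg44)* arrays and −1.16 to 0.74 on the other 6, and its part in the P450 differences was not tested.

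These comparisons share the 2 *age-1(mg44)* arrays with the comparison of *age-1(mg44)* to wildtype, so a gene that read high there by chance would also read lower in the transgenic strains. Of the 13, 10 were higher than wildtype in *age-1(mg44)*, 1 (*cyp-13B2*) was lower, and *cyp-33C1* and *cyp-23A1* were not called. Of the 24 higher in *age-1(mg44)*, 14 were not called lower in the tissue-restricted strains, which does not show that they stayed as high. Counted without a test, 11 of 73 P450 genes read lower on all 6 arrays than on both *age-1(mg44)* arrays, beside 5.61% of all genes, and 0 read higher on all 6, beside 5.59%. The 11 were *cyp-13A12*, *cyp-13B2*, *cyp-14A1*, *cyp-14A4*, *cyp-23A1*, *cyp-29A2*, *cyp-33A1*, *cyp-33C1*, *cyp-34A8*, *cyp-34A9* and *cyp-35B1*.

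**Figure D3:**
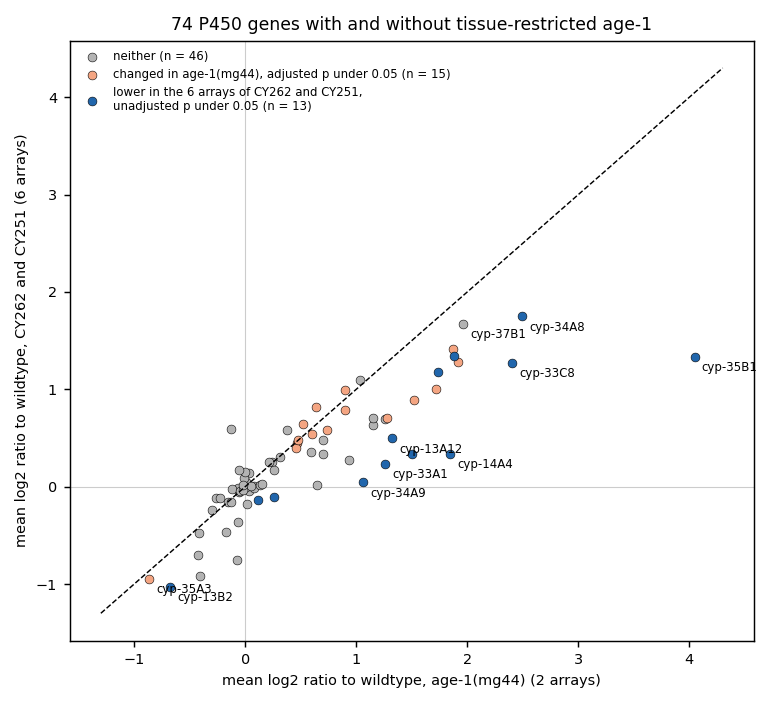
Mean log2 ratio to wildtype of each of the 74 P450 genes in *age-1(mg44)* (x axis, 2 arrays) and over CY262 and CY251 (y axis, 6 arrays), with the line of equal values dashed. The 13 genes lower in CY262 and CY251 at an unadjusted p under 0.05 (blue) lie under the line, *cyp-35B1* farthest, while 15 of the genes called in *age-1(mg44)* (orange) were not called lower.

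By size, *cyp-35B1* came first among P450 genes, 2.71 ± 0.67 (SE) lower on the log2 scale, or 6.55-fold (95% interval −4.31 to −1.11; limma unadjusted p = 0.00548, adjusted p = 0.420), placed 10 among all genes ordered by fall. Without *age-1(mg44)* replicate 1 the difference was −1.88 with an unadjusted p of 0.0584. *cyp-14A4* was 2.84-fold lower (limma unadjusted p = 0.000465, adjusted p = 0.209), a log2 difference of −1.51 that ran from −2.46 to −0.43 over the other settings and stayed under the threshold in each. *cyp-14A1* was 2.25-fold lower (limma unadjusted p = 0.00889). Both *cyp-14A* genes had means under 0.5 in CY262 and CY251, whereas *cyp-35B1* stayed above 1 in both.

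*cyp-33A1* had the smallest p of any P450 gene, 2.04-fold lower with a difference of −1.03 ± 0.12 (SE; 95% interval −1.31 to −0.75; limma unadjusted p = 7.71e-05, adjusted p = 0.121). *cyp-34A9* was 2.03-fold lower (limma unadjusted p = 0.00816). *cyp-13A12* was 1.77-fold lower (limma unadjusted p = 0.00814). For these 3 genes the mean of CY262 lay within 0.28 of wildtype on the log2 scale, while *cyp-13A12* stayed 0.71 above it in CY251.

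*cyp-34A8* was 1.67-fold lower (limma unadjusted p = 0.00929), *cyp-29A2* 1.47-fold (unadjusted p = 0.00316) and *cyp-29A3* 1.45-fold (unadjusted p = 0.0183), yet all of them stayed above wildtype in both strains. These calls were lost under 2, 3 and 5 of the 24 other settings in the same order, and the difference of *cyp-29A3* went from −0.54 to −0.24 without *age-1(mg44)* replicate 1 (limma unadjusted p = 0.182). *cyp-33C8* was 2.19-fold lower (limma unadjusted p = 0.0467), a call that was lost under 7 of the 24 other settings, with p up to 0.295 without *age-1(mg44)* replicate 2. *cyp-13B2* was 0.35 ± 0.12 (SE) lower on the log2 scale than in *age-1(mg44)* (limma unadjusted p = 0.0252), which took it farther from wildtype. This call was lost under 5 of the 24 settings, with p up to 0.280 under median centring. *cyp-33C1* and *cyp-23A1* differed by −0.36 and −0.25.

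**Figure D4:**
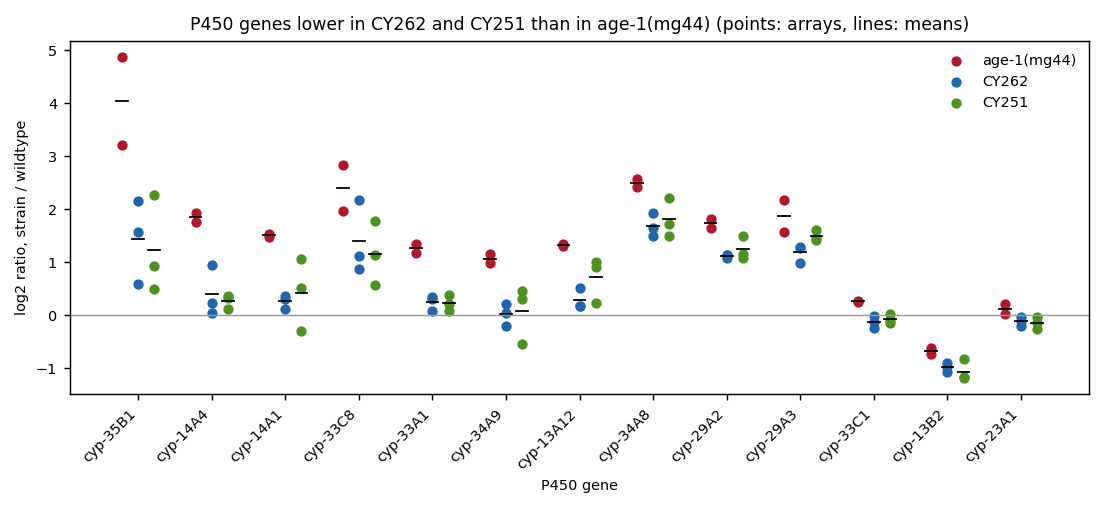
Log2 ratio of strain to wildtype on each array (points) and strain means (lines) for the 13 P450 genes lower in CY262 and CY251 than in *age-1(mg44)* at an unadjusted p under 0.05, ordered by size of the difference. *cyp-14A4*, *cyp-14A1*, *cyp-33A1* and *cyp-34A9* are near 0 in most CY262 and CY251 arrays, while *cyp-34A8*, *cyp-29A2* and *cyp-29A3* stay at 0.99 or above.

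Some other genes that were high in *age-1(mg44)* showed small differences, with intervals that leave room for a partial fall. Their rises against wildtype were 0.47 (*cyp-25A4*), 0.48 (*cyp-33D3*), 0.52 (*cyp-34A6*), 0.90 (*cyp-43A1*) and 0.64 (*cyp-33C9*). *cyp-25A4* differed by −0.02 (95% interval −0.28 to 0.25) between the tissue-restricted strains and *age-1(mg44)*. *cyp-33D3* differed by 0.00 (−0.28 to 0.29) and *cyp-34A6* by 0.13 (−0.20 to 0.45). *cyp-43A1* differed by −0.11 (−0.47 to 0.24) and *cyp-33C9* by 0.18 (−0.26 to 0.63). Larger falls that were not called were those of *cyp-32B1* (−0.71) and of the *cyp-33E* genes (−0.63 to −0.45). *cyp-13B1* and *cyp-14A5*, with differences of −0.64 (limma unadjusted p = 0.198) and −0.46 (unadjusted p = 0.290), had more spread and a fall could neither be shown nor bounded as tightly.

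The third question was whether intestinal and neuronal *age-1* acted differently on P450 genes. For the arrays as recorded, 0 P450 genes differed between CY262 and CY251 at an unadjusted p under 0.05 (limma), while 0.795% of all genes did, and the median difference was 0.02. Without CY251 replicate 2 the count was 5, where the share of all genes was not counted. Under the value table's assignment the count was 1, beside 1.42% of all genes. This gene was *cyp-29A4*, which was 0.53 lower in CY262 (limma unadjusted p = 0.0417). With the replicate 2 arrays exchanged it was 12, beside 10.4% of all genes, with 6 higher and 6 lower in CY262. The following genes were chosen after their values under that exchange were seen.

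*cyp-13B1* was then 1.22 ± 0.13 (SE) higher in CY262, with means of 1.89 and 0.67 (limma adjusted p = 0.0308), and it was the only P450 gene of the 12 to pass after adjustment over all genes. *cyp-37B1* was 1.66 higher in CY262 (limma unadjusted p = 0.0168). *cyp-35A2* was lower by 1.33 in CY262 (unadjusted p = 0.0130), as was *cyp-13A12* by 0.62 (unadjusted p = 0.0027). The other 8 were *cyp-33C8*, *cyp-33C9*, *cyp-36A1* and *cyp-37A1*, higher in CY262, and *cyp-14A1*, *cyp-14A2*, *cyp-25A6* and *cyp-35D1*, lower in CY262. The order of the strain means of *cyp-35B1* also turned with the assignment, at 1.44 in CY262 and 1.23 in CY251 as recorded, 1.55 and 1.12 with the exchange, and 1.19 and 1.48 under the value table. The records do not agree on the assignment, and which P450 genes differ between the strains therefore remains without an answer here.

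**Figure D5:**
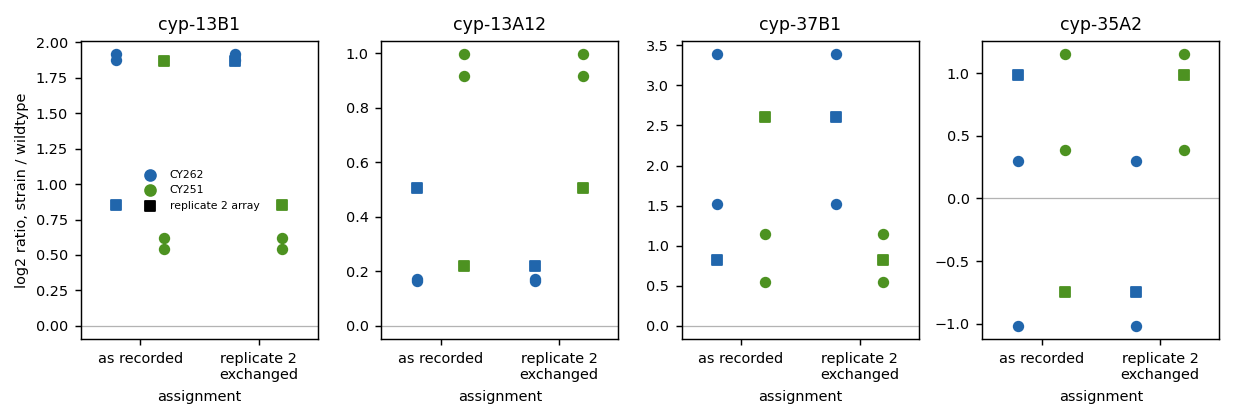
Log2 ratio of strain to wildtype for 4 P450 genes on the arrays of CY262 (blue) and CY251 (green), as recorded and with the replicate 2 arrays (squares) exchanged. For *cyp-13B1* the exchange puts the 3 arrays near 1.9 in CY262 and the 3 between 0.54 and 0.85 in CY251, whereas as recorded each strain holds both levels.

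How far values spread over the arrays differed greatly from gene to gene. The largest ranges over the 8 arrays, in which differences between strains are included, were those of *cyp-35B1* (4.39), *cyp-35A5* (3.62), *cyp-37B1* (2.84) and *cyp-35C1* (2.42), and the median range of the 74 genes was 0.79. CY262 replicate 1 read lowest of all arrays for *cyp-35A5*, *cyp-35A2*, *cyp-35C1*, *cyp-25A1* and *cyp-25A2*. *cyp-25A1* and *cyp-25A2* were at −0.96 and −0.69 on that array and at 1.18 and 1.27 on CY262 replicate 2. A single *cyp-29A4* probe, printed 10 times, had an SD of 0.03 to 0.12 between its spots within an array, while the array means ran from −0.37 to 1.05, so spot noise was small beside the difference between arrays.

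Where a second probe existed, the array pattern was similar, but the size of the values differed. The other probe for *cyp-31A2* read 0.17 and −0.79 in *age-1(mg44)*, against 0.29 and −0.42 for the probe used. The other probe for *cyp-13B1* read 1.82 and 1.46 in *age-1(mg44)*, 0.54 and 1.46 in CY262 replicates 2 and 3, and 0.35, 1.49 and 0.24 in CY251. It was again high on the same arrays as the probe used. The other probe for *cyp-42A1* read −0.05 and 0.56 in *age-1(mg44)*. The probe used had no value on replicate 1 and read 1.26 on replicate 2, so its strain value is well above both readings of the other probe.

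Genes that work with P450 enzymes were compared as fixed lists. All 3 electron transfer genes were higher in CY262 and CY251, and 1 in *age-1(mg44)*. *emb-8*, the P450 reductase, had differences of 0.19, 0.48 and 0.41 in *age-1(mg44)*, CY262 and CY251, while *cytb-5.2*, a cytochrome b5, was higher in all 3 strains with 0.97, 0.77 and 0.74. DAF-9 is the P450 that makes the sterol hormone of the receptor DAF-12. Of 6 genes of its pathway, with *daf-9* among them, 0 were called in *age-1(mg44)*, and 1 was called higher and 2 lower in each of CY262 and CY251. The higher one was *daf-36*, a Rieske oxygenase that acts at the start of the same pathway, at 1.67 and 1.69. In *age-1(mg44)*, *daf-36* had a mean of 1.27, with 0.41 and 2.13 on the 2 arrays (limma adjusted p = 0.165). Between the tissue-restricted strains and *age-1(mg44)* it differed by 0.41 (limma unadjusted p = 0.553). *daf-9* itself differed from wildtype by −0.01, 0.18 and 0.22 and was called in no strain.

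Of 5 *hrg* genes listed for heme uptake, 1 was called higher in each strain. It was *hrg-2* in *age-1(mg44)* (1.01, limma adjusted p = 0.0306) and *hrg-7* in CY262 and CY251 (0.77 and 0.91). In *age-1(mg44)*, *hrg-1* and *hrg-4* read lower without being called (−0.97 and −1.86, limma adjusted p = 0.109 and 0.0979). The median of the 5 was −0.12, −0.20 and −0.10 in *age-1(mg44)*, CY262 and CY251, so the list as a whole did not rise. Of 16 regulators of detoxification genes, 0 were higher and 2 lower in *age-1(mg44)*, the heat shock factor gene *hsf-1* (−0.79, limma adjusted p = 0.0152) and the Mediator subunit gene *mdt-15* (−0.63, limma adjusted p = 0.0125). CY262 had 3 higher and 1 lower, and CY251 3 higher and 2 lower. *hsf-1* was lower in each strain, at −0.59 in CY262 and −0.75 in CY251. *daf-16* read −0.08 in *age-1(mg44)* and was higher in CY262 (0.40) and CY251 (0.32). None of the 30 genes on these 4 lists passed after adjustment between the tissue-restricted strains and *age-1(mg44)* (limma), where at an unadjusted p under 0.05 *hrg-2* was lower and *daf-16*, *mdt-15* and *skn-1* were higher.

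Over the whole array, the genes whose log2 ratios on the 8 arrays came nearest to those of *cyp-35B1*, by root mean square difference, were *asp-8* (0.69), *gst-29* (0.87), C14C6.2 (0.88), *clec-86* (0.88) and *clec-13* (0.90). *asp-8* encodes an aspartyl protease, *gst-29* a glutathione S-transferase, and *clec-86* and *clec-13* C-type lectins. Among P450 genes the nearest were *cyp-34A8* (1.13), *cyp-14A5* (1.19), *cyp-29A3* (1.30), *cyp-32B1* (1.30) and *cyp-13B1* (1.31). *asp-8* had a mean of 4.36 in *age-1(mg44)* and ran from 0.00 to 3.32 over CY262 and CY251. The measure is given as a description over 8 arrays that share their wildtype reference.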

How the data were processed

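RNA of each strain (Cy3) and of wildtype (Cy5) was hybridized to Agilent arrays, and per the file headers the authors read the spots with Agilent's Feature Extraction software. The deposited intensity values are raw, local background and processed signals per spot and dye, and the deposited log10 values are the software's ratio of wildtype to strain, used as an alternative with the sign turned and on the log2 scale. With limma 3.58.1 in R 4.3.3, raw signals were background-corrected (normexp, offset 50) and loess-normalized within each array. Outlier spots were left out, a mean raw wildtype signal above 100 was required, which removed 0 probes, and of several probes the brightest stood for its gene. Sequence names were matched to the RefSeq gene table (WBcel235), which gave symbols to 18121 of 18873 genes. Of these genes 823 have several probes, and up to 15 genes without a value in some strain drop out of a comparison.

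All arrays entered a single lmFit and eBayes model with a mean per strain. Comparisons with wildtype were called at an adjusted p under 0.05, and those between strains at an unadjusted p under 0.05, with the adjusted count beside it. P-values treat the arrays as independent. Values on every array were given for *cyp-35B1*, for up to 8 called P450 genes with the largest rise and fall in *age-1(mg44)*, for up to 5 with the largest difference each way between the tissue-restricted strains and *age-1(mg44)*, and for 5 that the study names. Others were described by their subfamily and were chosen after their values were seen. The P450 genes, the marker and pathway lists and these rules were chosen with earlier results of these data known. Alternatives changed background correction, normalization, filters, outlier spots, choice of probe, variance model, replicate terms, array assignment, day of feature extraction, arrays included and test, where the methods' t-test compares raw signals divided by their array mean. The number of arrays limits the precision, and values of dim genes also depend on the background correction.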

Additional observations from a re-analysis of the deposited data

How the results depend on the processing

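Under 24 other settings, the P450 genes lower in the tissue-restricted strains than in *age-1(mg44)* numbered 8 to 16 (13 as reported; 9 to 14 with each array left out in turn), and their median difference kept its sign, from −0.212 to −0.0368. *cyp-33A1*, *cyp-14A4* and *cyp-14A1* stayed lower at an unadjusted p under 0.05 under each setting. The replicate 1 arrays stood apart, and without all 3 of them, a choice made after seeing the data, the counts were 4 in *age-1(mg44)* against wildtype, 8 in both strains and 6 in CY262 against *age-1(mg44)*, and 1 between CY262 and CY251. Leaving out each array in turn gave 6 to 25 in *age-1(mg44)*, 12 to 25 in CY262 and 15 to 24 in CY251 against wildtype, 7 to 11 in CY262 and 5 to 14 in CY251 against *age-1(mg44)*, and 0 to 5 between CY262 and CY251, where fewer arrays also mean fewer degrees of freedom. The last count was 1 with processed signals, the deposited log ratio, the value table's assignment or the largest day of feature extraction alone, and 12 with the replicate 2 arrays exchanged, which also gave 17 in CY251 against *age-1(mg44)*. The methods' t-test shifts the median of all genes to 0.556, 0.432 and 0.477 against wildtype in *age-1(mg44)*, CY262 and CY251. At its unadjusted threshold it called 37, 52 and 54 P450 genes, after Benjamini-Hochberg 0, 45 and 50, and 5 in CY262 against *age-1(mg44)*. Apart from CY262 against CY251 under the other array assignments, the share of all genes called was not counted for any setting in this section. The counts are therefore not shown to be particular to P450 genes. With the replicate block the counts were 31, 37 and 32 against wildtype, 16, 15 and 13 against *age-1(mg44)* and 0 between the strains, and *cyp-35B1* passed the threshold in CY262 and CY251 (limma adjusted p = 0.00733 and 0.0106). Deviations from the strain means do not settle whether replicate numbers pair the arrays. Their correlations were 0.61 to 0.79 among replicate 1 and 0.23 between CY262 and CY251 replicate 3. For replicate 2 they were 0.45 and 0.55 between *age-1(mg44)* and CY262 or CY251, but −0.16 between CY262 and CY251, whose assignment is in doubt. The 2 *age-1(mg44)* arrays deviate from their mean by equal and opposite amounts. With *age-1(mg44)* replicate 1 the same CY262 and CY251 arrays therefore give −0.45 and −0.55, and the values for replicate 2 carry no separate information. Arrays of different number reached 0.49, as between CY262 replicate 2 and CY251 replicate 3. Signs turned for *cyp-35A2* against wildtype (−0.67 with median centring, −0.10 without *age-1(mg44)* replicate 2, −0.38 in the methods' t-test) and against *age-1(mg44)* (−0.43 to 0.27 with each array left out, 0.27 without *age-1(mg44)* replicate 2, 0.16 without CY262 replicate 1, 0.10 without CY251 replicate 2, and 0.0472 in the methods' t-test). They turned for *cyp-14A5* against *age-1(mg44)* (−1.13 to 0.21 with each array left out, 0.21 without its replicate 1, 0.10 without all replicate 1 arrays) and for *cyp-35A3* (−0.37 to 0.20 with each array left out, 0.20 without *age-1(mg44)* replicate 2, and 0.20 against wildtype in the methods' t-test). The median difference between CY262 and CY251 ranged from −0.0205 to 0.04997 with each array left out and was −0.0154 under the value table's assignment, −0.00509, −0.0205 and −0.000833 without CY262 replicate 1, CY262 replicate 3 and CY251 replicate 3, and −0.00349 in the methods' t-test. The cause was not tested in any of these. For *cyp-35B1* in *age-1(mg44)* the adjusted p was 0.0523 without the replicate 1 arrays and 0.0923 in the methods' t-test.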
